A study of Mus musculus with 4 samples.

Results

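Nonproductive TCRβ rearrangements are V-D-J joins that cannot be read through into a TCRβ chain. They were taken here as the clones whose CDR3, the stretch from the conserved cysteine codon of V to the phenylalanine codon of J, either had a length that is not a multiple of 3 (frameshift clones) or kept the frame and held a stop codon (stop clones). The rule used only the translation of the CDR3, and no V, D or J call and no read count entered it. V usage was not wholly free of it. A stop codon in the germline CDR3 end of a V segment, as in TRBV4 below, puts clones into the stop class. The rule found 14374 clones, 13446 with a frameshift and 928 with a stop codon, among 382531 TCRβ clones. The in-frame clones without a CDR3 stop numbered 364420 and are the comparison throughout. A further 3733 clones had a CDR3 that was not fully covered and 4 had an empty one, and these entered neither class.

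The clones came from 4 RNA libraries of splenic CD4+ T cells, 2 from wild type (WT) mice and 2 from Tet2/3 DKO mice (Tet2-/- Tet3 flx/flx CD4Cre), with an average age of 25 days. The cells had been sorted as live CD4+ CD25- TCRβ+ cells that did not bind the αGalCer tetramer, which leaves out cells that express CD25 and iNKT cells. Tet2 is absent from the germline of the DKO mice, whereas Cre under the CD4 promoter removes Tet3 at the double positive stage, after the Tcrb locus has rearranged in double negative thymocytes. The libraries held 365421 to 569678 TCRβ reads in 81127 to 104017 clones. Reads were PCR reads without molecular identifiers, so the intervals below cover counting error only, and a low read number can come from few cells or from little transcript per cell, which cannot be told apart.

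A Tcrb allele rearranges D to J first and then V to DJ, with bases trimmed from the ends and untemplated bases added at the joins. A cell whose first allele fails can rearrange the other one, so a T cell with a working TCRβ chain can carry a failed allele beside it. Transcripts with an early stop codon are degraded by nonsense-mediated decay, and RNA-based libraries therefore see failed alleles through a pool of transcript that is reduced. Failed joins are not selected through the receptor they encode, and are used for that reason as a record of rearrangement before selection.

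Some V segments of these libraries cannot encode a chain in any frame, because they carry a stop codon upstream of the CDR3. Sequences of framework 3 (FR3), the 111 bases before the CDR3, are shown for the pair of segments in which every clone had such a stop, with the stop codon in capitals, as the most frequent FR3 of each segment among its clones (build of the coordinates GRCm38.p6, from RefSeq).
TRBV24, chr6:41218091-41218557: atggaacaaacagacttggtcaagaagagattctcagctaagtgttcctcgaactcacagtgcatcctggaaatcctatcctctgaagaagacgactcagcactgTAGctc
TRBV22, chr6:41212075-41212534: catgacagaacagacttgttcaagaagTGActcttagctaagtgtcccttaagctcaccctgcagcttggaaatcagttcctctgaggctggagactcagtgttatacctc
The TRBV24 form was found in 2182 of 2319 TRBV24 clones (94.1%), with TAG as codon 36 of the FR3. The TRBV22 form was found in 114 of 125 TRBV22 clones (91.2%), with TGA as codon 10. RefSeq lists TRBV22 as a V segment pseudogene and TRBV24 as a V segment.

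The joins themselves are shown by the nonproductive clone with the most reads of each kind in each library. In frameshift clones the capitals mark the bases between the end of V and the start of J, and in stop clones they mark the stop codon.
WT replicate 1, frameshift, TRBV5 to TRBJ2-7, 71 reads: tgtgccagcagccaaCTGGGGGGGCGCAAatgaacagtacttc
WT replicate 2, frameshift, TRBV30 to TRBJ2-3, 31 reads: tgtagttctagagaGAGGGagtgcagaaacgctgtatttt
Tet2/3 DKO replicate 1, frameshift, TRBV24 to TRBJ2-7, 22 reads: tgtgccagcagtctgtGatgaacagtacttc
Tet2/3 DKO replicate 2, frameshift, TRBV31 to TRBJ1-2, 525 reads: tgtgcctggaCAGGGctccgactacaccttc
WT replicate 1, stop, TRBV17 to TRBJ2-7, 10 reads: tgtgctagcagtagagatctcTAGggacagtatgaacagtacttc
WT replicate 2, stop, TRBV4 to TRBJ2-3, 10 reads: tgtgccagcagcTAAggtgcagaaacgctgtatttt
Tet2/3 DKO replicate 1, stop, TRBV5 to TRBJ2-7, 17 reads: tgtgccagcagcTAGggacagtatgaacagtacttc
Tet2/3 DKO replicate 2, stop, TRBV15 to TRBJ1-1, 10 reads: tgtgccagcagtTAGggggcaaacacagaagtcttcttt
All 4 frameshift joins have 1 base more than a multiple of 3. The 525-read clone ranked 34 among all clones of its library, whereas the largest nonproductive clones of the other libraries had 71, 31 and 22 reads.

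Nonproductive clones made up 3.98% (Wilson 95% interval 3.85 to 4.12) of the covered clones in WT replicate 1, 3.601% (3.49 to 3.72) in WT replicate 2, 3.82% (3.70 to 3.94) in DKO replicate 1 and 3.81% (3.70 to 3.93) in DKO replicate 2. Their share of the reads was lower in every library, at 2.65%, 2.51%, 2.70% and 2.39% in the same order. The DKO libraries lay between the WT libraries in the share of clones and at both ends of the range in the share of reads. The share of clones was 3.79 ± 0.27% in WT and 3.82 ± 0.0032% in DKO (SD, n = 2 each; exact permutation p = 1, with 0.333 the smallest that 2 against 2 allows). The share of reads was 2.58 ± 0.10% in WT and 2.54 ± 0.22% in DKO (SD, n = 2 each; exact permutation p = 1).

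**Figure D1:**
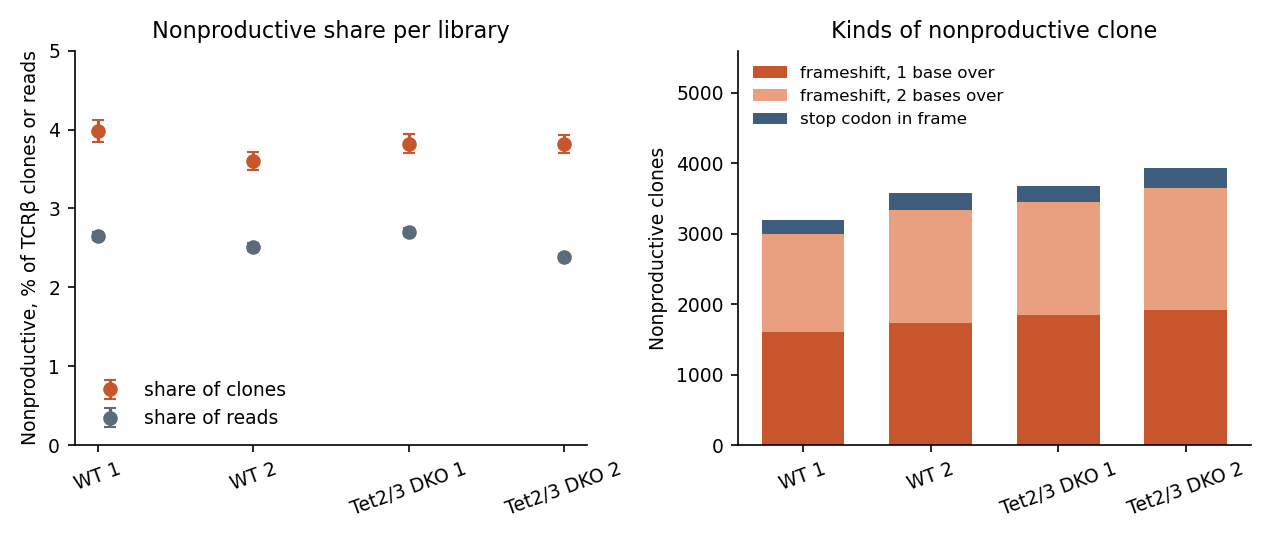
Left, percent of covered TCRβ clones and of their reads that were nonproductive, in separate colours. Each of the 4 libraries has 1 point for clones and 1 for reads, with bars for Wilson 95% intervals. Right, number of nonproductive clones in each library, stacked by size of the frameshift or in-frame stop codon. Shares of clones run from 3.601% to 3.98% and shares of reads from 2.39% to 2.70%, with the genotypes interleaved.

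Frameshift clones outnumbered stop clones in every library, with stop clones at 6.08%, 6.59%, 5.83% and 7.22% of the nonproductive clones of WT replicates 1 and 2 and DKO replicates 1 and 2. Among frameshift clones, a CDR3 with 1 base over a multiple of 3 was the more frequent form, at 53.4%, 52.0%, 53.3% and 52.5% of them (7096 clones against 6350 with 2 bases over). Where the V frame next met a stop differed with the shift and with the J segment. Reading on through CDR3 and at least 24 bases of framework 4, 57.8% of the clones with 1 extra base met a stop codon, at a median of codon 10 counted from the cysteine, and 3331 of those stops lay inside the CDR3. Of the clones with 2 extra bases, 95.3% met a stop, at a median of codon 23, and 382 of those stops lay inside the CDR3. The share varied between J segments. With 1 extra base it ran from 6.42% for TRBJ1-2 to 100% for TRBJ1-1, and with 2 extra bases it was 5.39% for TRBJ1-4 and 98.75% to 100% for the others. Mean reads per clone with and without such a stop were 3.37 and 3.65 for 1 extra base and 2.96 and 3.13 for 2, and the order changed between libraries in both cases. For 1 extra base without a stop, the mean was 4.60 in DKO replicate 2 and 3.10 to 3.46 in the other libraries. Stops beyond the bases read were not looked for.

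A clone with an error in its sequence can look like a failed join. The share of nonproductive clones that lay 1 base from an in-frame clone of the same library, V and J with more reads was therefore counted, as a substitution for stop clones and an insertion or deletion for frameshift clones. It was 12.5%, 15.2%, 13.9% and 16.8% of frameshift clones and 34.5%, 48.7%, 46.3% and 47.2% of stop clones in WT replicates 1 and 2 and DKO replicates 1 and 2. These near clones numbered 2393 in all and held 8.93% of the nonproductive reads. The tested comparisons of class and genotype were recomputed without them, and their origin was not tested.

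Stop codons in the CDR3 were TAG in 39.7% of stop clones, TGA in 31.1% and TAA in 29.2%. They lay within the V part in 32.9%, within the J part in 28.3%, between V and J in 23.6% and across the end of V in 10.6%. Among the 513 stop clones that were not near an in-frame clone the order differed, with TAA in 37.8%, TAG in 33.9% and TGA in 28.3%. In these, stops lay within the V part in 33.3%, between V and J in 25.3%, within the J part in 19.3% and across the end of V in 16.96%. TRBV4 stood out among the V-part stops. Its germline end, as read from its clones, holds TAA as codon 5 of the CDR3 (TAA in capitals).
TRBV4, CDR3 end of V: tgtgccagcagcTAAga
Of 151 TRBV4 stop clones, 118 carried this TAA inside the V part, and 46 of these had lost no base from the end of V. An in-frame TRBV4 join escapes this codon only where trimming reaches into it. The clones that kept it had lost a mean of 0.83 bases from the end of V. TRBV4 stop clones with the TAA had a mean of 2.74 reads, against 1.69 for stop clones of the other V segments. Of the 151, 2 lay 1 base from an in-frame clone, against 53.2% of stop clones with another V. TRBV4 gave 72.5% of the 171 V-part stops that were not near an in-frame clone.

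V usage was counted by clones, so that each listed clone counts once, and by reads. Of 24 TRBV segments tested for their share of nonproductive against in-frame clones within the libraries, 21 passed an adjusted p of 0.05 in edgeR's quasi-likelihood test, or 87.5% of those tested. Of these, 11 (45.8% of those tested) were higher in nonproductive clones and 10 (41.7%) were lower. By reads, 19 of the 24 segments passed (79.2%). With most segments passing, a pass on its own says little about a segment, and the sizes are given instead. TRBV24 took so large a share of the nonproductive clones that it lowers the shares of the others. With TRBV24, TRBV22 and TRBV21 taken out of the totals, an alternative chosen after seeing the data, 17 of 21 segments passed, 9 higher and 8 lower, and the median change moved up by 0.21 on the log2 scale.

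**Figure D2:**
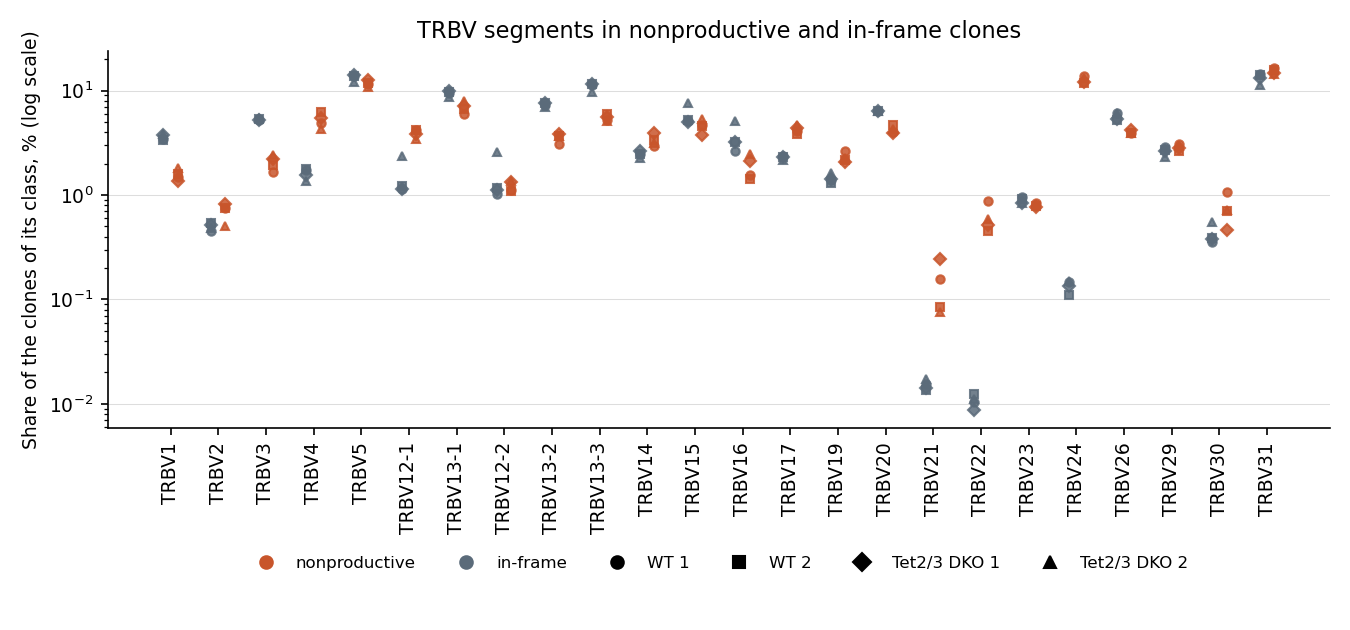
Percent of nonproductive and of in-frame clones that used each of 24 TRBV segments, with 1 point for each of the 4 libraries on a log axis. TRBV24 is the segment with the widest gap, at 11.9% to 13.8% of nonproductive clones and 0.110% to 0.150% of in-frame clones.

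TRBV24, the segment with the FR3 stop codon TAG shown above, made up 13.8%, 11.9%, 12.04% and 13.2% of nonproductive clones in WT replicates 1 and 2 and DKO replicates 1 and 2. Of in-frame clones it made up 0.148%, 0.110%, 0.133% and 0.150%. The classes were far apart in every library, with a log2 change of 6.56 (SE 0.095, edgeR adjusted p = 7.23e-25). TRBV22 was higher by 5.76 on the log2 scale (SE 0.32, edgeR adjusted p = 4.92e-13), from 86 nonproductive and 39 in-frame clones. All 2319 TRBV24 clones and all 125 TRBV22 clones had a stop codon in FR3, in-frame clones included, so 530 clones that are in-frame by their CDR3 used a V segment with a stop ahead of it. TRBV21, which had no FR3 stop, was higher by 3.17 (SE 0.50, edgeR adjusted p = 4.80e-06), on 20 nonproductive and 55 in-frame clones. The 3 segments together gave 1934 of the 14374 nonproductive clones.

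Seen from the segment, 79.5%, 80.3%, 78.2% and 77.7% of TRBV24 clones were nonproductive in WT replicates 1 and 2 and DKO replicates 1 and 2. Across all libraries the share was 78.8% for TRBV24, 68.8% for TRBV22 and 26.7% for TRBV21. A stop codon anywhere in the covered V part was found in 14.9% of nonproductive and 1.41% of in-frame clones, and in 1.84% and 1.27% once TRBV24 and TRBV22 were left out. Among the rest, such stops were frequent in TRBV23 (40.9% of 115 nonproductive and 13.7% of 3229 in-frame clones) and TRBV13-2 (9.16% of 513 and 1.12% of 26796), which were singled out here after their values were seen. TRBV29 is also listed as a pseudogene by RefSeq, yet it had 9594 in-frame clones and its share, 2.88 ± 0.19% of nonproductive and 2.65 ± 0.24% of in-frame clones (SD, n = 4), did not pass the test (edgeR adjusted p = 0.271).

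After TRBV24, TRBV22 and TRBV21, the segments raised the most in the nonproductive clones were TRBV4, TRBV12-1 and TRBV17. TRBV30, TRBV19, TRBV2 and TRBV14 were higher as well, with log2 changes of 0.79, 0.68, 0.50 and 0.45 (edgeR adjusted p = 0.00460, 7.60e-05, 0.0366 and 3.45e-04). TRBV4 made up 4.86%, 6.26%, 5.45% and 4.32% of nonproductive clones and 1.72%, 1.76%, 1.54% and 1.36% of in-frame clones in WT replicates 1 and 2 and DKO replicates 1 and 2 (log2 change 1.71, SE 0.099, edgeR adjusted p = 5.42e-13). The TAA described above puts TRBV4 into the stop class by the rule itself, but stop clones were 20.2% of its nonproductive clones. TRBV12-1 made up 4.17%, 4.22%, 3.81% and 3.41% of nonproductive clones and 1.13%, 1.23%, 1.14% and 2.38% of in-frame clones (log2 change 1.47, SE 0.16, edgeR adjusted p = 3.51e-08). DKO replicate 2 had the smallest gap for TRBV12-1, through its higher in-frame share. Among stop clones alone the TRBV12-1 change was 0.16 (edgeR adjusted p = 0.775). TRBV17 was 4.24 ± 0.34% of nonproductive and 2.29 ± 0.074% of in-frame clones (SD, n = 4; log2 change 0.89, SE 0.097, edgeR adjusted p = 2.65e-08). Among stop clones alone the TRBV17 change was -0.0083 (edgeR adjusted p = 0.979).

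The lowest relative to in-frame clones were TRBV3, TRBV1, TRBV13-2, TRBV13-3, TRBV16 and TRBV20. TRBV3 made up 1.66%, 1.96%, 2.21% and 2.39% of nonproductive clones and 5.22%, 5.29%, 5.19% and 5.47% of in-frame clones in WT replicates 1 and 2 and DKO replicates 1 and 2 (log2 change -1.36, SE 0.099, edgeR adjusted p = 2.74e-11). TRBV1 changed by -1.20 (SE 0.11), TRBV13-2 by -1.05 (SE 0.079) and TRBV13-3 by -1.01 (SE 0.063), with edgeR adjusted p of 2.14e-09, 4.15e-11 and 1.98e-12. TRBV13-3 went from 11.02 ± 0.89% of in-frame to 5.47 ± 0.34% of nonproductive clones (SD, n = 4). TRBV16 changed by -0.89 (SE 0.12) and TRBV20 by -0.59 (SE 0.078), with edgeR adjusted p of 3.38e-07 and 3.46e-07. With TRBV24, TRBV22 and TRBV21 out of the totals TRBV20 changed by -0.39 (edgeR adjusted p = 3.00e-04). Near clones were unevenly spread, at 30.1% of the nonproductive TRBV5 clones, 27.3% of those of TRBV20 and 26.6% of those of TRBV13-3. They were 2.27% of those of TRBV4 and 0.219% of those of TRBV24. Their share did not follow the direction of change throughout, at 24.6% for TRBV31, which was higher, and 11.6% for TRBV16, which was lower. The part of near clones in these differences was not tested beyond the recomputation without them.

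TRBV31 lies downstream of the D, J and C clusters and joins by inversion of the DNA between, unlike the other V segments. It was the segment with the largest share of nonproductive clones, at 16.5%, 15.6%, 14.9% and 14.3% against 14.3%, 13.9%, 13.2% and 11.4% of in-frame clones in WT replicates 1 and 2 and DKO replicates 1 and 2. The difference was small (log2 change 0.22, SE 0.049, edgeR adjusted p = 3.37e-04), and it was 0.071 without the near clones (edgeR adjusted p = 0.161) and 0.42 with TRBV24, TRBV22 and TRBV21 out of the totals (adjusted p = 1.55e-06). The most frequent V and J pairs among nonproductive clones were TRBV31 with TRBJ2-7 (432 clones), TRBV24 with TRBJ2-7 (412 clones, beside 118 in-frame clones of that pair) and TRBV5 with TRBJ2-7 (372 clones).

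J usage differed less than V usage. By clones, 8 of 12 TRBJ segments passed (66.7%), 4 of them higher (33.3%) and 4 lower (33.3%) in nonproductive clones, and by reads 5 of 12 passed (41.7%). Scaling by TMM changed the split by clones to 2 higher and 5 lower, and DESeq2 to 4 higher and 3 lower. Without WT replicate 2, 1 segment passed by reads. TRBJ1-1, the J nearest to TRBD1, showed the largest fall, from 8.09 ± 0.54% of in-frame to 5.83 ± 0.21% of nonproductive clones (SD, n = 4; log2 change -0.47, SE 0.055, edgeR adjusted p = 3.65e-09). TRBJ1-3 and TRBJ1-4 were lower by log2 changes of -0.35 (SE 0.074) and -0.25 (SE 0.063), and TRBJ2-2 by -0.18 (SE 0.061), with edgeR adjusted p of 1.52e-04, 0.00102 and 0.0106. The TRBJ2-2 call did not hold in DESeq2 (adjusted p = 0.146) or without DKO replicate 2 (edgeR adjusted p = 0.178), and its direction turned among stop clones alone, where the change was 0.31 (edgeR adjusted p = 0.313). TRBJ2-1 was higher, at 12.6 ± 0.99% of nonproductive and 10.3 ± 0.15% of in-frame clones (SD, n = 4; log2 change 0.30, SE 0.043, edgeR adjusted p = 1.49e-07).

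TRBJ1-5 and TRBJ1-6 were higher by log2 changes of 0.33 (SE 0.11) and 0.27 (SE 0.096), with edgeR adjusted p of 0.00943 and 0.0126. TRBJ2-7 had the largest share of all J segments, at 22.4%, 23.4%, 22.4% and 25.3% of nonproductive clones and 21.01%, 21.1%, 21.5% and 23.1% of in-frame clones in WT replicates 1 and 2 and DKO replicates 1 and 2. Its difference of 0.11 on the log2 scale (SE 0.027, edgeR adjusted p = 7.23e-04) no longer passed under TMM, where it was 0.041 (adjusted p = 0.330), without the near clones (0.064, adjusted p = 0.123) or without DKO replicate 2 (0.100, adjusted p = 0.0694). TRBJ1-6 no longer passed under TMM (adjusted p = 0.0604) or without WT replicate 1 (0.180), WT replicate 2 (0.0602) or DKO replicate 1 (0.0765). The TRBJ1-5 call did not hold without WT replicate 2 (edgeR adjusted p = 0.0602) or DKO replicate 1 (0.0765), and among stop clones alone the change was -0.11 (adjusted p = 0.772). The TRBJ1 cluster as a whole gave 26.1%, 23.6%, 25.4% and 24.7% of nonproductive clones, against 27.8%, 26.9%, 29.3% and 27.9% of in-frame clones, lower in each library.

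**Figure D3:**
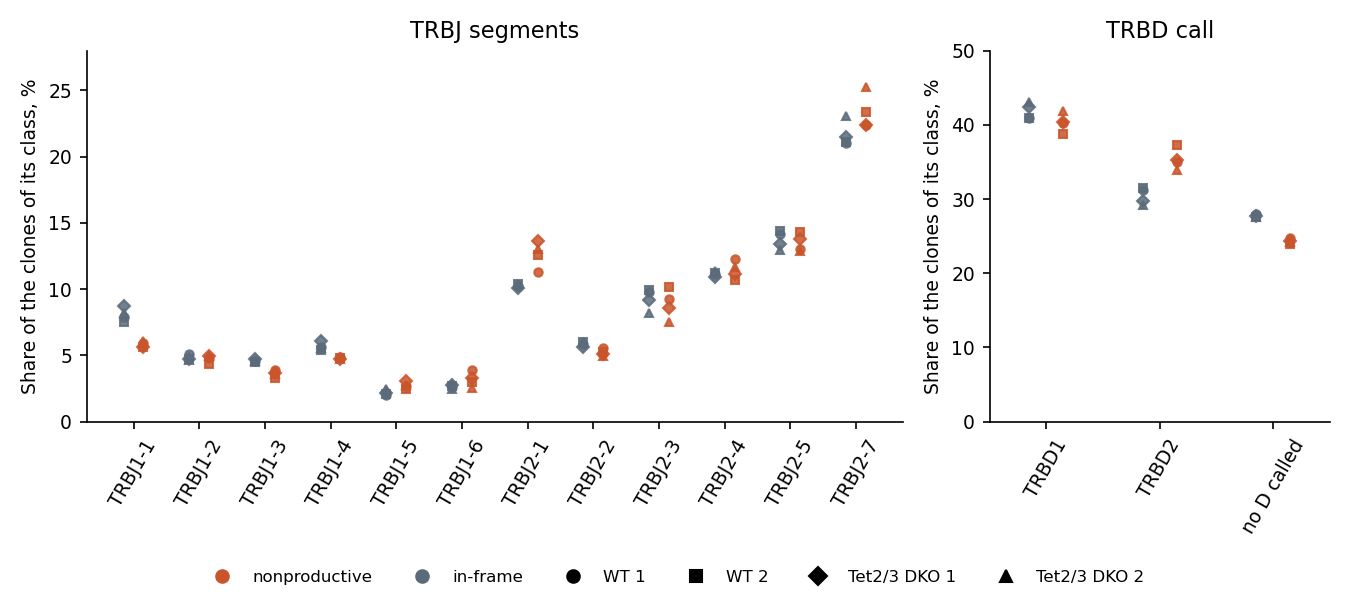
Percent of nonproductive and of in-frame clones that used each of 12 TRBJ segments (left) and each TRBD call or none (right), with 1 point for each of the 4 libraries. TRBJ1-1 is lower and TRBJ2-1 higher in nonproductive clones, and TRBD2 was called in 33.9% to 37.3% of nonproductive against 29.2% to 31.4% of in-frame clones.

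TRBD2 was called in 35.0%, 37.3%, 35.3% and 33.9% of nonproductive clones of WT replicates 1 and 2 and DKO replicates 1 and 2, and in 31.2%, 31.4%, 29.7% and 29.2% of in-frame clones. TRBD1 was called in 40.2%, 38.8%, 40.4% and 41.8% against 40.9%, 40.9%, 42.5% and 43.1%, and no D was called in 24.8%, 23.9%, 24.3% and 24.3% against 27.96%, 27.6%, 27.8% and 27.7%. Of clones with a D call, TRBD1 thus had a share that was 4.67 ± 1.07 points smaller in nonproductive clones (SD over 4 libraries, smaller in 4 of 4; exact sign-flip p = 0.125, the smallest that 4 libraries allow). The difference shrank to -1.29 points among clones with at least 2 reads and to -1.37 points without the near clones. Among stop clones alone it was smaller in 3 of 4 libraries, and WT replicate 2 had a share 3.09 points larger. TRBD2 lies downstream of the TRBJ1 cluster and cannot join it by deletion, so a TRBD2 call with a TRBJ1 segment gives a measure of wrong D calls. Such calls were 7.51%, 7.33%, 8.17% and 7.59% in nonproductive and 7.65%, 7.60%, 7.23% and 6.59% in in-frame TRBJ1 clones with a D.

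The CDR3 of nonproductive clones was longer and more variable. Its mean was 41.7, 41.7, 42.0 and 41.5 nucleotides in WT replicates 1 and 2 and DKO replicates 1 and 2, against 41.2, 41.2, 41.2 and 40.9 in in-frame clones. The difference was 0.61 ± 0.11 nucleotides (SD over 4 libraries, higher in 4 of 4; exact sign-flip p = 0.125, the smallest that 4 libraries allow) and 0.56 within V and J pairs. The spread over clones was wider too, with SDs of 4.93, 5.13, 4.90 and 4.86 nucleotides against 4.13, 4.14, 4.13 and 4.08. In-frame clones can only have lengths that are multiples of 3, so shares in the tails depend on where the cut falls. At 30 nucleotides or less lay 2.01%, 2.24%, 1.44% and 1.83% of nonproductive clones and 1.12%, 1.03%, 1.01% and 1.08% of in-frame clones, the larger share being nonproductive in each library. At 32 nucleotides or less, which takes in 2 further lengths open to frameshift clones only, the nonproductive shares were 4.39%, 4.69%, 4.14% and 5.01%. At 57 nucleotides or more lay 1, 7, 3 and 2 nonproductive clones, or 0.031%, 0.196%, 0.082% and 0.051%, against 0.044%, 0.039%, 0.040% and 0.032% of in-frame clones, with no common direction. At 55 nucleotides or more, which again takes in 2 lengths open to frameshift clones only, the nonproductive shares were 0.282%, 0.503%, 0.572% and 0.254%.

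**Figure D4:**
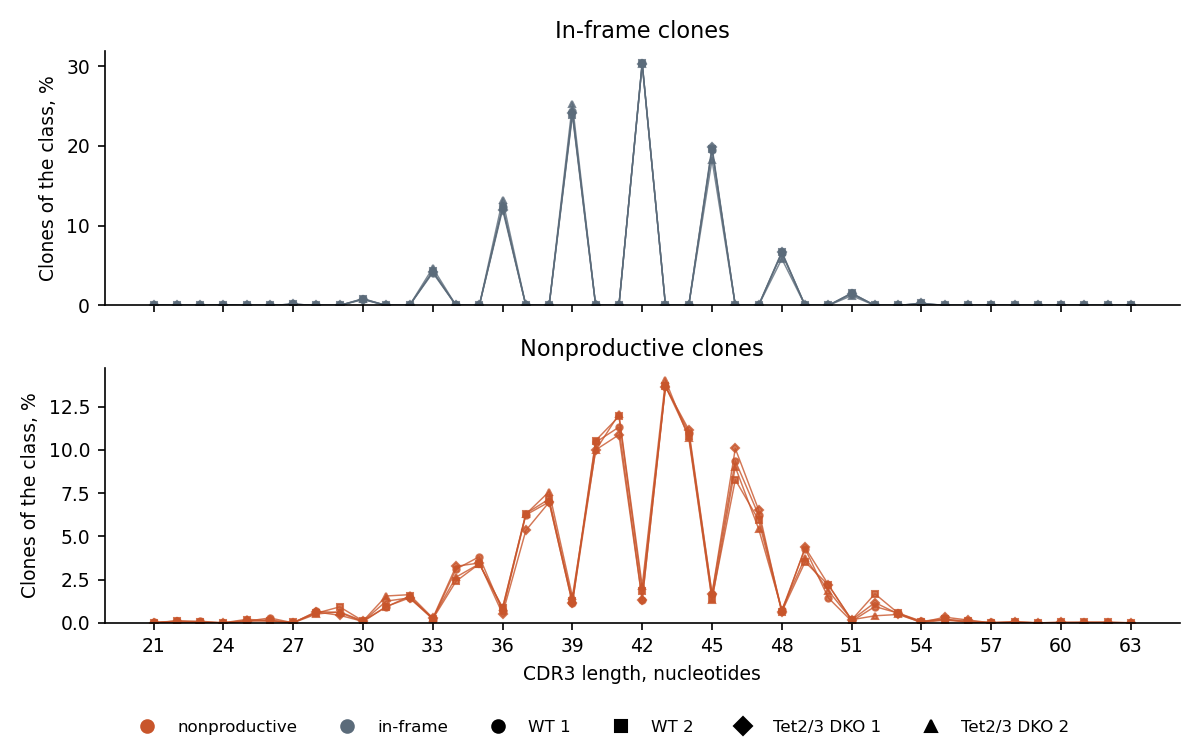
Percent of in-frame clones (top) and of nonproductive clones (bottom, on its own scale) at each CDR3 length in nucleotides, with 1 line and marker shape for each of the 4 libraries. In-frame clones sit on multiples of 3 and most nonproductive clones on the lengths between, with 1.44% to 2.24% of nonproductive clones at 30 nucleotides or less against 1.01% to 1.12% of in-frame clones.

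The added length lay at the join. Between the end of V and the start of J, nonproductive clones had a mean of 9.50, 9.66, 9.57 and 9.31 bases in WT replicates 1 and 2 and DKO replicates 1 and 2, against 8.78, 8.84, 8.76 and 8.63 in in-frame clones. The difference was 0.76 ± 0.065 bases (SD over 4 libraries, higher in 4 of 4; exact sign-flip p = 0.125), and 0.59 within V and J pairs. Where a D was called, untemplated bases between V and D numbered 1.31, 1.38, 1.33 and 1.26 against 1.19, 1.20, 1.17 and 1.11, and those between D and J 1.31, 1.38, 1.34 and 1.18 against 1.15, 1.17, 1.14 and 1.04. The retained D was 8.41, 8.44, 8.47 and 8.45 bases against 8.13, 8.17, 8.14 and 8.17. All 3 components were larger in nonproductive clones in each library.

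Nonproductive clones had fewer reads each. The mean was 3.00, 3.15, 2.99 and 3.43 reads in WT replicates 1 and 2 and DKO replicates 1 and 2, against 4.57, 4.57, 4.28 and 5.57 for in-frame clones, and the medians were 2 and 3. The ratio was -0.59 ± 0.082 on the log2 scale (SD over 4 libraries, lower in 4 of 4; exact sign-flip p = 0.125, the smallest that 4 libraries allow). Clones with 1 read were 38.4%, 39.4%, 39.4% and 40.4% of the nonproductive and 25.6%, 25.9%, 26.2% and 26.4% of the in-frame clones. Clones with 10 or more reads were 2.16%, 2.65%, 2.07% and 3.18% against 6.95%, 7.45%, 6.50% and 8.92%. The ratio was -1.34 for stop clones and -0.55 for frameshift clones. Near clones have fewer reads than their neighbour by definition and are a larger share of the stop clones. Without them the ratio was -0.46 for all nonproductive clones, and, in alternatives chosen after seeing the data, -0.94 for stop clones and -0.44 for frameshift clones.

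**Figure D5:**
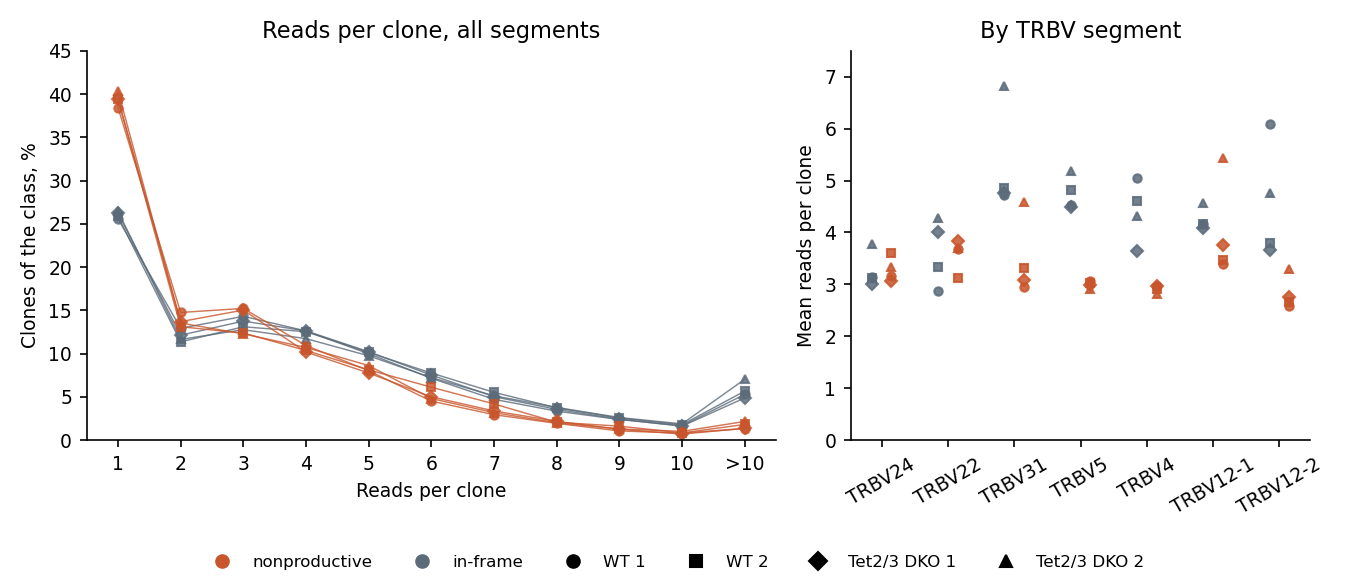
Percent of nonproductive and of in-frame clones at each number of reads per clone (left) and mean reads per clone for 7 TRBV segments (right), with 1 marker shape for each of the 4 libraries. Clones with 1 read are 38.4% to 40.4% of nonproductive and 25.6% to 26.4% of in-frame clones, and the classes overlap for TRBV24, TRBV22 and TRBV12-1 (the last through DKO replicate 2 alone) and not for TRBV31, TRBV5, TRBV4 and TRBV12-2. Overlap was not examined for the other TRBV segments.

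TRBV24 clones gave a comparison in which both classes carry the same upstream stop. In-frame TRBV24 clones had a mean of 3.29 reads over all libraries and nonproductive ones 3.29. In an alternative chosen after seeing the data, the ratio over libraries was 0.02 on the log2 scale (exact sign-flip p = 0.625). The libraries went both ways, at 0.013, 0.21, 0.032 and -0.18 in WT replicates 1 and 2 and DKO replicates 1 and 2. In TRBV12-1, which had an FR3 stop in 2 of 558 nonproductive clones, the classes overlapped through DKO replicate 2 alone, with 3.38, 3.47, 3.76 and 5.44 reads per nonproductive and 4.17, 4.16, 4.09 and 4.56 per in-frame clone in WT replicates 1 and 2 and DKO replicates 1 and 2. Small ratios were not confined to segments with an FR3 stop in every clone. Over all libraries the log2 ratio was -0.11 for TRBV12-1, -0.16 for TRBV30, -0.24 for TRBV21 and -0.30 for TRBV14. TRBV3 and TRBV20 lay at the other end of the range, at -0.92 each. Reads of both classes were more concentrated in DKO replicate 2, where the 10 largest nonproductive clones held 9.54% of the nonproductive reads, against 2.71%, 1.98% and 1.63% in WT replicates 1 and 2 and DKO replicate 1. The 10 largest in-frame clones held 6.41% of in-frame reads there, against 2.55%, 1.34% and 1.17%. Nonproductive clones with over 50 reads numbered 6 there and 1, 0 and 0 in the others in the same order, beside 493 in-frame clones there and 229, 224 and 108 in the others. Without such clones in either class the ratio was -0.47.

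Few nonproductive joins were found in more than 1 library. Of 12887 distinct V, J and CDR3 sequences, 14 (0.109%) were found in 2 libraries and 0 in 3 or 4, whereas 14721 of 294511 in-frame sequences (4.998%) were found in 2 or more. Larger sets share more, so shared sequences were divided by the product of the 2 set sizes. This gave 9.83e-08 to 3.54e-07 over the 6 pairs of libraries for nonproductive and 5.90e-07 to 6.31e-07 for in-frame joins, with no overlap, on 1 to 4 shared nonproductive sequences a pair. The scaling does not put the classes on equal terms. In-frame joins have only lengths that are multiples of 3, whereas frameshift joins spread over lengths with 1 or 2 bases more. How much of the gap comes from this was not tested. Of the 14, 9 were near an in-frame clone in at least 1 library and 5 were not. No base lay between V and J in 3 of the 14, of which 2 were among those 5. The shared join with the most reads was one of these.
TRBV24 to TRBJ2-7, 17 reads in WT replicate 2 and 1 in DKO replicate 2: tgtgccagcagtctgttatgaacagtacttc
Next, with 15 reads each, were a TRBV31 to TRBJ1-2 join that was near an in-frame clone and a TRBV17 to TRBJ2-7 join that was not. The latter had 11 reads in WT replicate 2 and 4 in DKO replicate 1, and its 3 bases between V and J are in capitals.
TRBV17 to TRBJ2-7: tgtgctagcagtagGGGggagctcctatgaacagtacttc

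Between genotypes, few differences were seen. Because 2 libraries stand against 2, exact tests of single values cannot go below 0.333. Mean reads per nonproductive clone differed by 0.058 on the log2 scale (exact permutation p = 1) and by -0.042 without DKO replicate 2. The mean CDR3 length of nonproductive clones was 41.7 ± 0.032 nucleotides in WT and 41.8 ± 0.34 in DKO (SD, n = 2 each; exact permutation p = 1), and without DKO replicate 1 the difference was -0.21. TRBD1 had 52.2 ± 1.73% of nonproductive clones with a D in WT and 54.3 ± 1.35% in DKO (SD, n = 2 each; exact permutation p = 0.667).

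Of 24 TRBV segments, 1 (4.17%) passed edgeR's test of DKO against WT in nonproductive clones. It was TRBV16, with shares of nonproductive clones of 1.57% and 1.43% for the 2 WT replicates and 2.12% and 2.44% for the 2 DKO replicates (log2 change 0.62, SE 0.18, edgeR adjusted p = 0.0385). Its shares of in-frame clones were 2.64% and 3.20% for WT and 3.19% and 5.12% for DKO. The call did not hold under TMM (adjusted p = 0.0616) or DESeq2 (0.971), or without any 1 of the 4 libraries (0.253 to 0.846), and over all alternatives the adjusted p ran from 0.0335 to 0.997. By reads the TRBV16 change was 0.69 (edgeR adjusted p = 0.375), and 0.84 without DKO replicate 1 (adjusted p = 0.0365).

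No other test by genotype gave a call in edgeR with all clones and libraries. By reads, 0 of 24 TRBV segments passed (0%), with 1 at an unadjusted p under 0.05. For TRBJ, 0 of 12 passed by clones (0%) and 0 of 12 by reads (0%), with 1 each at an unadjusted p under 0.05. DESeq2 made 0 calls in each. The difference between the genotypes in the change from in-frame to nonproductive clones was tested as an interaction by clones, and 0 of 24 TRBV segments (0%) and 0 of 12 TRBJ segments (0%) passed, with 1 of each at an unadjusted p under 0.05 and 0 calls by DESeq2. Without DKO replicate 1, 4 TRBV segments passed by reads (TRBV16, TRBV31, TRBV4 and TRBV5) and TRBV12-1 passed the interaction, and without WT replicate 1, TRBJ2-3 passed by clones. TRBJ2-3 also passed by clones among frameshift clones alone, and TRBV22 by reads among stop clones alone.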

How the data were processed

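TCRβ transcripts of sorted splenic CD4+ T cells had been amplified with a 5′ RACE kit and sequenced on a MiSeq. Per the labels and the study's methods, the authors trimmed reads with fastp (version 0.21.0, after bcl2fastq 2.20.0) and assembled clones with MiXCR. The authors deposited 1 clone table per library, with whole-number read counts and each clone's fraction of the counts, and the fraction matched the counts exactly. Clones were used as listed, with at least 1 read. D calls, ends of V and J and translations were the tables' own. TCRα tables and the libraries of other cells were not analysed here. Members and segment lists were chosen with earlier results of these data known.

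Segment counts with a total of at least 10 were tested with edgeR 4.0.16 (R 4.3.3; quasi-likelihood test, library sizes as column totals, Benjamini-Hochberg over all segments, threshold 0.05), with library as a term for class comparisons and without a block for genotype. Single values were compared with exact tests (scipy 1.17.1). DESeq2 1.42.0, TMM, a minimum of 2 reads, no filter, merged clones, frameshift or stop clones alone, reads drawn down to 365421, removal of near clones and leaving out each library were alternatives. The labels call the libraries biological replicates without naming the mice, so p-values measure only the spread between these samples. TRBV segments named were the largest changes in the same direction in 4 libraries, TRBV31, segments outside a list of functional ones and any called by genotype; all called TRBJ segments were named. TRBV2, TRBV5, TRBV12-2, TRBV14, TRBV19, TRBV23, TRBV29 and TRBV30 fall outside this rule and were named after their values were seen. Segments changed 4-fold in simulated data were recovered in 96.2% of cases for TRBV by genotype (24 segments), the lowest of the clone tests, and 3.33% were called without a change for TRBJ by genotype (12 segments), the highest. Smaller changes were not simulated. Recovery at the sizes seen between genotypes, at most 0.62 on the log2 scale by clones (TRBV16), is therefore not known. Same-numbered replicates were treated as unpaired. Their deviations correlated at -0.41 over 23 TRBV and 0.29 over 12 TRBJ segments, with opposite signs.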

Additional observations from a re-analysis of the deposited data

How the results depend on the processing

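The comparisons of nonproductive with in-frame clones for reads per clone, CDR3 length, junction bases and TRBD1 share kept the direction of their mean under the alternatives run, except reads per clone among TRBV24 clones (0.019 on the log2 scale). Differences between genotypes had no stable sign: that in the share of clones was -0.0042 points with at least 2 reads, -0.047 without near clones, -0.060 with reads drawn down and -0.16 to 0.22 without each library, and that in the share of reads -0.19 to 0.12 without each library. Reads per clone gave -0.11 for stop clones and -0.042 to 0.16 on the log2 scale without each library, CDR3 length -0.21 to 0.28 nucleotides without each library, and TRBD1 share -0.75 points for stop clones. The 1 TRBV call by genotype fell to 0 under DESeq2, TMM, at least 2 reads, merged clones, frameshift clones, stop clones, and without each library (0 to 0). It was also 0 with the replicate block, and 0 with a crossed replicate block chosen after seeing the data because same-numbered libraries deviated in opposite ways over TRBV segments; by reads the crossed block gave 0 as well, and the replicate block changed no other call. By reads the genotype test gave 1 TRBV call for stop clones and 0 to 4 without each library (4 without DKO replicate 1); the TRBJ test by clones gave 1 for frameshift clones and 0 to 1 without each library (1 without WT replicate 1), and the TRBV interaction 0 to 1 (1 without DKO replicate 1). Between classes, stop clones alone, the smallest set, gave 13 TRBV calls by clones and 9 by reads, 3 TRBJ calls by clones and 1 by reads. TRBJ by reads gave 8 with TMM, 8 without near clones, and 1 to 7 without each library (1 without WT replicate 2). For stop clones TRBJ1-5 was at -0.11, TRBJ2-2 at 0.31 and TRBV17 at -0.0083 on the log2 scale, none of them called, and TRBV21 had no stop clone. The cause of these changes was not tested. Stop clones numbered 928 over 4 libraries.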
